A study of Rattus norvegicus with 8 samples.

Results

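Chromosome 1 was described in 2 parts that had been set apart by read coverage in 2 of the tumours, BT-1 and BT-2. The long part ran from 20 to 260 Mb, where these 2 tumours had fewer reads than the controls, and the end part ran from 260 Mb to the last CpG, where they had more. Members were tiles of 200 bp with at least 3 CpGs in each of the 8 samples. The long part held 21523 tiles and the end part 3234, together 24757 of 257611 tiles in all, and 227038 tiles of chromosomes 2 to 20 served as the comparison. All positions are on rn6. Coverage of BT-1 and BT-2 chose the parts, so it is described here without a test, whereas methylation played no role in the choice.

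The samples were 5 urothelial carcinomas (UCs; BT-1 to BT-5) and 3 normal bladders (C1 to C3) from male F344/DuCrj rats that entered the experiment at 10 weeks of age. For 104 weeks the drinking water held 200 ppm dimethylarsinic acid (DMA), a methylated metabolite of arsenic, for the UC group and 0 ppm for the controls. The control tissue is called urothelium in the labels and bladder in the methods. UCs were dissected as gross lesions, so the share of tumour cells in each is unknown, and the sources used here do not say whether the 5 UCs came from 5 animals. The p-values therefore measure the spread between these samples only.

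In reduced representation bisulfite sequencing (RRBS), DNA is cut at sites rich in CpG and treated with bisulfite, so that a C call marks a methylated and a T call an unmethylated cytosine. The number of reads over a stretch scales with how many copies of it the sample holds, and a gain or loss of a chromosome segment in tumour cells moves that number over the whole segment. Promoters in CpG islands are mostly unmethylated in normal tissue, those of developmental transcription factors often gain methylation in carcinomas, and imprinted genes such as Igf2 carry methylation that differs between the maternal and the paternal copy. Each sample had 51434938 to 73836223 calls at 2526077 to 2821347 CpGs, with a median of 14 to 18 calls per CpG.

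Chromosome 1 promoters were placed on rn6 through the spacing of their CpGs, and the stretches upstream of the start are shown for the genes on which the results turn. Capitals mark the CpGs that at least 1 of the 8 samples covered, and the letters are those of RefSeq GRCr8, 5′ to 3′. Hif1an (chr1:264308964-264309213, plus strand) and Pax2 (chr1:264504341-264504590, plus strand) are shown because they were the last placed promoter before the breakpoint and the first after it. Of their CpGs, 5 of 10 and 21 of 25 were covered.
Hif1an: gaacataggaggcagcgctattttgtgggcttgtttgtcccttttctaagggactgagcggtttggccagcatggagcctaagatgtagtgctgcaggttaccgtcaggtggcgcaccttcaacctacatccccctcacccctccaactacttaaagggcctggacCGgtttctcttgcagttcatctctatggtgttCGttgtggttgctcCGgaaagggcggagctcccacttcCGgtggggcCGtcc
Pax2: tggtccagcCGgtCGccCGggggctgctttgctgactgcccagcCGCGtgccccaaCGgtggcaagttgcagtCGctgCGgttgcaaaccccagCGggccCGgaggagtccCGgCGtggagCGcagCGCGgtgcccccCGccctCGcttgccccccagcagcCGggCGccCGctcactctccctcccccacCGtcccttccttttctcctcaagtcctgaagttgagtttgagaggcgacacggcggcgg

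Sfrp5 (chr1:261446571-261446820, minus strand), Nkx2-3 (chr1:263367016-263367265, plus strand) and Tlx1 (chr1:264892912-264893161, plus strand) are shown because, with Pax2, they make up the 4 regions of the end part that the study had listed as hypermethylated. The first 2 lay before the breakpoint and Tlx1 after it, and 9 of 12, 14 of 17 and 9 of 14 of their CpGs were covered.
Sfrp5: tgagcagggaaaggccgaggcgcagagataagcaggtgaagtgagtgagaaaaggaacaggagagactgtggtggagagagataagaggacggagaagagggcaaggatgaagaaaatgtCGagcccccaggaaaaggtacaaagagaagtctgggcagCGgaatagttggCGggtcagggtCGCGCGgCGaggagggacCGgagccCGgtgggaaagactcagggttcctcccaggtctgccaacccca
Nkx2-3: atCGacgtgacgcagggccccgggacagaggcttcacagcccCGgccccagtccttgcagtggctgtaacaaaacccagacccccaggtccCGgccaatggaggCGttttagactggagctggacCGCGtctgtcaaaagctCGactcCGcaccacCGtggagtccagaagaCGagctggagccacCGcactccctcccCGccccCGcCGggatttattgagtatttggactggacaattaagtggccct
Tlx1: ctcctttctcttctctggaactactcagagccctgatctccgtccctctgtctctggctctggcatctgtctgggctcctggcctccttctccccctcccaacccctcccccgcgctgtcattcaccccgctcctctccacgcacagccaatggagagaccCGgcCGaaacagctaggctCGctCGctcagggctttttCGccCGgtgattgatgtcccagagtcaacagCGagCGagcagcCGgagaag

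From the long part, Igf2 (chr1:215838210-215838459, minus strand) is shown as an imprinted gene, Shisa7 (chr1:72545346-72545595, plus strand) as the listed gene with the largest difference, and Htatip2 (chr1:105094592-105094841, plus strand) as a promoter with lower levels in the UCs. Coverage reached 13 of 15, 20 of 20 and 7 of 7 of their CpGs.
Igf2: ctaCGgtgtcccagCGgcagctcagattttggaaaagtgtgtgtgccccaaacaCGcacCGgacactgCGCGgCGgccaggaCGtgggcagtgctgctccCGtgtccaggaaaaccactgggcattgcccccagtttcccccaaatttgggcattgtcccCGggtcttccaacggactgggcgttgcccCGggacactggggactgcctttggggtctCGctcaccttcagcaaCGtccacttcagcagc
Shisa7: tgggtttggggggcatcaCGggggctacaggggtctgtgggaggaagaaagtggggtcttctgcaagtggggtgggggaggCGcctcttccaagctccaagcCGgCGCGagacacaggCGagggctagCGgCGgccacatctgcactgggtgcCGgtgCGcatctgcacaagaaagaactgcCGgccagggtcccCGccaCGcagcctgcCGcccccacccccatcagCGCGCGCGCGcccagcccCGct
Htatip2: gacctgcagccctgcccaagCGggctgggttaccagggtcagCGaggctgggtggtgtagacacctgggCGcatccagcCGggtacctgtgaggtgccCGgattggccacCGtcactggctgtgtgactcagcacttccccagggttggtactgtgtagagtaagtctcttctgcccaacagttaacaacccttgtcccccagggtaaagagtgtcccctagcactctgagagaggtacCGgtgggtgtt

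Read coverage was the share of a sample's calls on chromosomes 1 to 20 that fell in a stretch, on a log2 scale relative to the control mean. In the long part this value was -0.24 in BT-1 and -0.22 in BT-2, or 0.850 and 0.860 of the control share, and the 3 controls had an SD of 0.0065. BT-3, BT-4 and BT-5 were at -0.02, -0.05 and -0.04, and no test was made, since the control values had also entered the choice of the parts. In bulk tissue, a loss in some cells and a smaller share of tumour cells cannot be told apart, and the scale is relative to the other autosomes, so it does not count copies.

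The lower coverage of the long part was broad and uneven. Of its 120 windows of 2 Mb, 112 were below all 3 controls in BT-1 and 93 in BT-2, against 35 in BT-3, 60 in BT-4 and 52 in BT-5. Of the 1179 windows of chromosomes 2 to 20, 162, 149, 263, 440 and 380 were below all controls in BT-1 to BT-5. In BT-3, 44 windows of the long part were above all controls, against 597 of the 1179 on chromosomes 2 to 20. In stretches of 40 Mb, BT-1 went from -0.13 between 20 and 60 Mb to -0.33 between 100 and 140 Mb, and BT-2 from -0.11 to -0.25 over the same stretches. Between 220 and 260 Mb the values were -0.25 in BT-1 and -0.24 in BT-2. Sites were reduced less than reads: by number of CpGs listed, the long part was at -0.05 on the log2 scale in these 2 tumours.

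**Figure D1:**
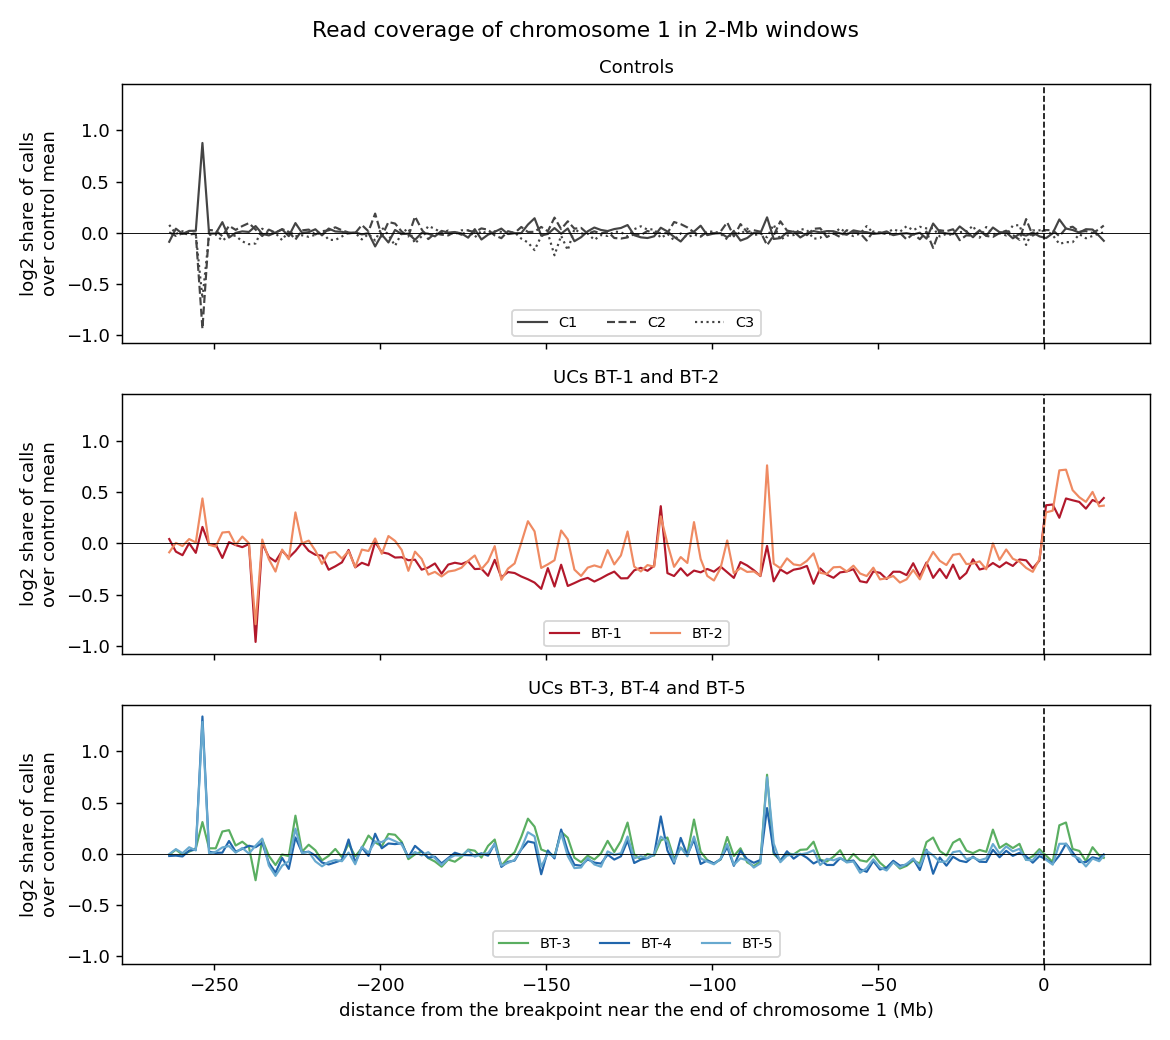
Read coverage in windows of 2 Mb along chromosome 1 as log2 of the share of calls over the control mean, against distance from the breakpoint in Mb (dashed line), in 3 panels for the controls, for BT-1 and BT-2, and for BT-3 to BT-5, with 1 line per sample. BT-1 and BT-2 run mostly below 0 before the breakpoint (112 and 93 of 120 windows of the long part below all controls) and above it after, while the other 3 UCs stay near 0 apart from single windows.

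The end part as cut at 260 Mb mixed 2 kinds of stretch. Over the whole of it, BT-1 and BT-2 were at 0.26 and 0.27, with BT-3, BT-4 and BT-5 at -0.01, -0.06 and -0.06. Of its 12 windows of 2 Mb, however, 10 were above and 2 below all controls in both tumours. Windows above all controls were also common on chromosomes 2 to 20, with 569 of 1179 in BT-1 and 824 of 1179 in BT-2. The windows on either side of the limit were alike: BT-1 and BT-2 were at -0.17 and -0.24 in the last window before 260 Mb and at -0.24 and -0.28 in the first after it. The next window gave -0.17 and -0.16, and from 264 to 266 Mb the values were 0.37 and 0.30. The stretch from 260 Mb to the breakpoint, with 9643 CpGs, was thus at -0.20 and -0.22, against the label of higher coverage, and the stretch after the breakpoint, with 30887 CpGs, was at 0.39 and 0.40, or 1.31 and 1.32 times the control share.

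The breakpoint was located by fitting a single step to the coverage from 230 Mb to the end, in each sample alone. With windows of 200 kb the step fell at 264.4 Mb in BT-1 and at 264.4 Mb in BT-2. It measured 0.61 and 0.58 on the log2 scale and took up 79.4% and 65.7% of the variance between windows. In each of the other 6 samples the best step took up at most 6.50%. Windows of 50 kb placed it at 264.35 Mb in both tumours.

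The stretch before the step was not even. Over the first 3 Mb of the end part BT-1 and BT-2 were at -0.25 and -0.27, and from there to the breakpoint at -0.14 and -0.15, with BT-1 at 0.06, -0.04 and -0.06 in the 3 windows of 50 kb from 264.15 to 264.30 Mb. Between 264.30 and 264.35 Mb, BT-1 and BT-2 were at -0.22 and -0.07, where the other 6 samples were between -0.11 and 0.08. Between 264.35 and 264.40 Mb they were at 0.54 and 0.50, whereas the other 6 samples were between -0.06 and 0.10. Windows of 10 kb held as few as 367 calls over all 8 samples and were too uneven to narrow the position further. The promoter of Hif1an, which encodes an asparaginyl hydroxylase that restrains HIF-1, ended 40.7 kb before 264.35 Mb, and that of Pax2, a paired-box factor of kidney and urogenital development, began 154 kb after it. No promoter was placed in the 195 kb between them.

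**Figure D2:**
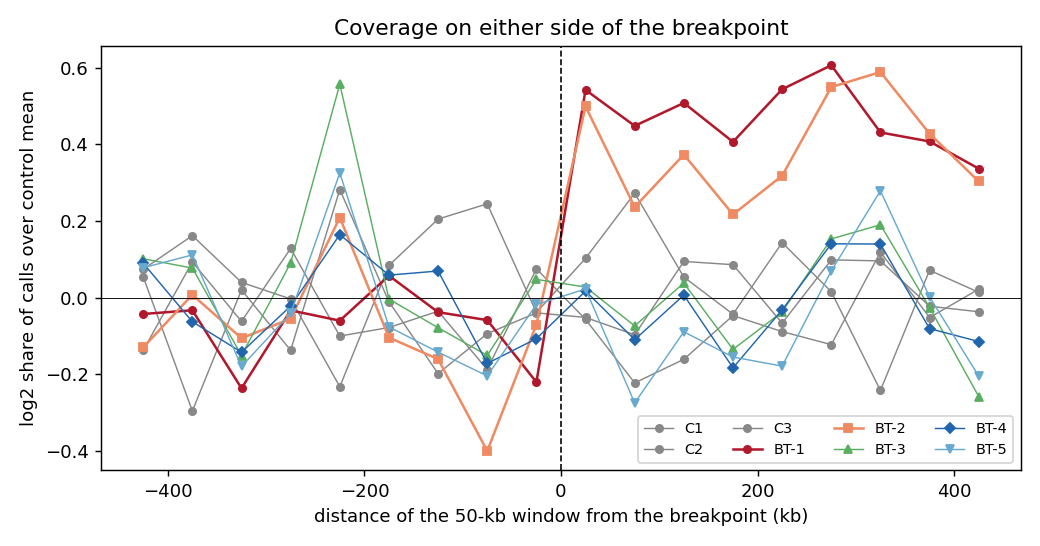
Read coverage of each sample in windows of 50 kb (log2 of the share of calls over the control mean) against distance from the breakpoint in kb. BT-1 and BT-2 step up from -0.22 and -0.07 in the last window before the breakpoint to 0.54 and 0.50 in the first after it, and the other 6 samples show no such step.

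The other edge of the long part was not at 20 Mb and had no single step. The same fit over the first 60 Mb gave 26.0 Mb in BT-1 and BT-2, but the step took up only 6.65% and 6.92% of the variance, less than the best steps of BT-4 and BT-5 (7.38% and 8.25%). A narrow stretch stood out instead. Between 26.1 and 27.0 Mb, coverage was -1.38 in BT-1 and -1.21 in BT-2, which is 0.383 and 0.431 of the control share, against -0.35 in BT-3, 0.04 in BT-4 and 0.09 in BT-5 and -0.07 to 0.07 in the controls. When a stretch between 2 steps was fitted from 25 to 29 Mb, its limits were 26.1 to 27.0 Mb in BT-1 (83.4% of the variance) and 26.1 to 26.9 Mb in BT-2 (82.5%). This narrow stretch held 276 CpGs and 20 tiles, and no promoter was placed between 25 and 29 Mb. Mean tile levels inside it were 79.9%, 80.5% and 78.9% in the controls and between 78.1% and 79.5% in the UCs, with means -0.999 points apart (exact two-sided permutation test, p = 0.107). With calls summed the direction was the opposite, at 75.9% in the controls and 77.4% in the UCs (1.45 points; exact two-sided permutation test, p = 0.393).

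Methylation was higher in UCs by the same amount in both parts when all calls were summed, short of the test's threshold. In the long part the share of C calls was 32.1%, 30.9% and 29.2% in C1 to C3 and 34.2%, 35.7%, 32.7%, 33.1% and 32.1% in BT-1 to BT-5. In the end part it was 32.5%, 30.3% and 29.5% in the controls and 33.8%, 36.1%, 33.2%, 32.8% and 32.2% in the UCs. BT-2 was the highest sample in both parts, and only BT-5 overlapped the controls, falling just short of C1. The difference of means was 2.83 points in the long part (30.7% ± 1.47, SD, n = 3, against 33.6% ± 1.41, n = 5) and 2.83 points in the end part (30.8% ± 1.55 against 33.6% ± 1.49). Both missed the threshold (exact two-sided permutation test over 56 divisions, p = 0.0536 for each; the smallest possible is 0.0179). Without C1 they were 3.52 and 3.70 points (p = 0.0476, the smallest that 2 against 5 can give) and without BT-5 both were 3.20 points (p = 0.0286, the smallest for 3 against 4; exact permutation tests). Leaving out any other sample did not reach the threshold. Exact permutation p-values were then 0.0571 to 0.143 in the long part and 0.0571 to 0.190 in the end part. With BT-1 and BT-2 merged, and BT-4 and BT-5 merged, the differences were 2.65 and 2.74 points. Their exact permutation p-values were 0.1 and 0.2, where 0.1 is the smallest possible. Chromosomes 2 to 20 differed by 2.61 points (p = 0.0357, same exact test).

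The change of the long part could not be told from that of the end part on summed calls (difference of the changes -0.0035 points, exact permutation test, p = 0.982), nor from that of chromosomes 2 to 20 (0.22 points, p = 0.482). Weighting each tile equally gave small differences. The long part minus the end part was 0.31, 0.25 and 0.18 points in the controls and 0.05, 0.04, -0.15, -0.13 and -0.11 points in the UCs, without overlap, so that the end part gained 0.31 points more (exact permutation test, p = 0.0179, the smallest it can give). On the same scale the long part gained 0.22 points and the end part 0.53 points more than chromosomes 2 to 20, each with p = 0.0179 from an exact permutation test. The shares of tiles with low and with high control levels also differed between these stretches, as given below. The part of this mix in the gaps was not tested. The UC minus control changes themselves were 0.78 points in the long part (exact permutation test, p = 0.411) and 1.08 points in the end part (p = 0.196), and were carried by BT-1 and BT-2: they had 55.2% and 54.8% in the long part, against 52.5% to 53.0% in the controls and 52.3% to 52.8% in the other 3 UCs.

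On either side of the breakpoint, the summed difference was 2.05 points over 802 tiles before it (p = 0.107) and 2.999 points over 2432 tiles after it (p = 0.0357; exact permutation tests). The excess after the breakpoint, 0.95 points, did not reach the threshold (exact permutation test, p = 0.179). After the breakpoint the UCs were at 34.1%, 36.8%, 34.0%, 33.7% and 33.1%. BT-2 was the highest there, and BT-1 was near BT-3.

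**Figure D3:**
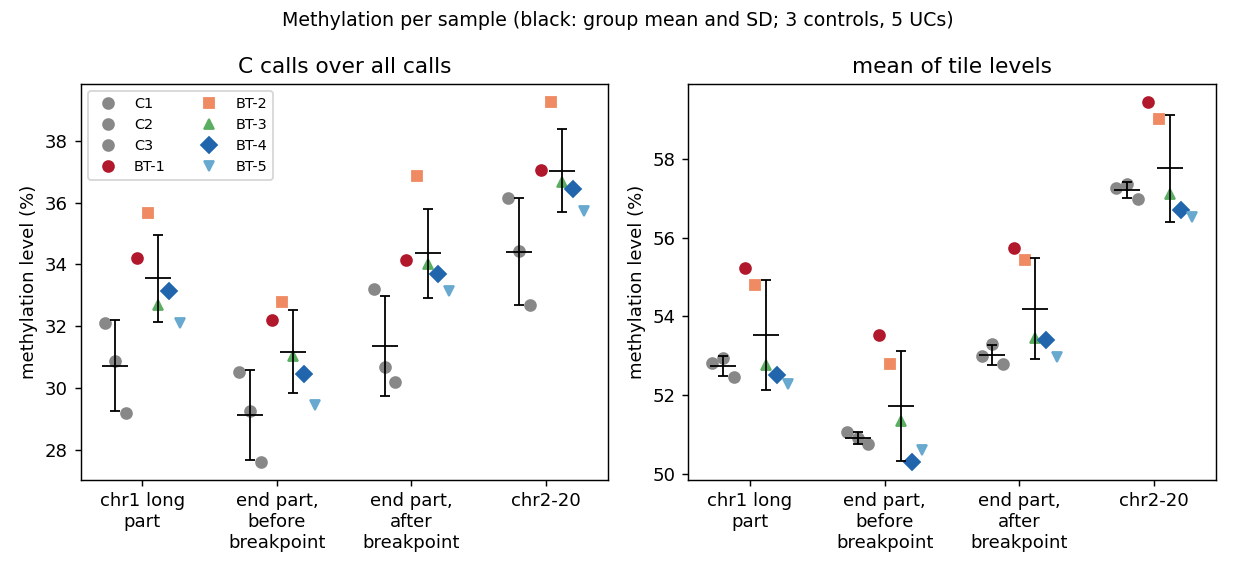
Methylation level per sample in the long part, in the end part before and after the breakpoint and on chromosomes 2 to 20, as the share of C calls among all calls (left) and as the mean of tile levels (right), in percent. Points are samples, and black lines are the group mean and SD of 3 controls and 5 UCs; BT-2 is highest by summed calls and BT-1 by mean tile level in every stretch, and the axes do not start at 0.

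Tiles were next grouped by their mean control level, a choice that by itself favours movement towards the middle, so the values are a description. Tiles under 20% in the controls averaged higher in every UC. The 6834 such tiles of the long part averaged 2.34% to 2.71% in the controls and 6.01%, 5.73%, 3.82%, 4.98% and 4.86% in BT-1 to BT-5. The 1003 of the end part went from 2.44% to 2.90% in the controls to 7.10%, 6.78%, 4.71%, 5.90% and 5.55%. The difference of the means was 2.54 points in the long part, 3.31 in the end part and 2.65 on chromosomes 2 to 20, with BT-1 the highest and BT-3 the lowest UC each time. Tiles over 80% in the controls averaged 89.1% in the controls and 87.7% in the UCs in the long part, and 88.9% and 87.9% in the end part. Tiles under 20% made up 31.8% of the long part, 31.0% of the end part and 26.2% of chromosomes 2 to 20. For tiles over 80% the shares were 38.1%, 36.8% and 42.1%. Between these limits the means differed by 1.69 points in the long part, 1.34 in the end part and 1.70 on chromosomes 2 to 20. Over 80% they differed by -1.42, -1.01 and -1.62 points. Against chromosomes 2 to 20, the long part rose slightly less under 20% and fell less over 80%.

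Single tiles went through a quasi-binomial test of their calls, and a call required an adjusted p-value below 0.05 together with group means more than 10 points apart. Over all 257611 tiles 9.29% were called higher and 7.16% lower in UCs. In the long part 1947 tiles (9.05%) were higher and 1440 (6.69%) lower, and in the end part 313 (9.68%) were higher and 233 (7.20%) lower, all near the background, which was 16.4% in both directions together. Within the end part, 65 of 802 tiles (8.10%) before the breakpoint and 248 of 2432 (10.2%) after it were called higher, and 51 (6.36%) and 182 (7.48%) lower. Depth differed with coverage: the median tile had 103 calls in BT-1 and BT-2 in the long part and 156 after the breakpoint, against 108 and 106 in the other UCs, and its part in these counts was not tested. Without any 1 control the called tiles, 3387 and 546 in the 2 parts, dropped to between 1737 and 2001 and between 277 and 312. The shares on chromosomes 2 to 20 dropped as well, to between 4.43% and 5.21% higher and between 3.84% and 4.15% lower. In 563 tiles of the end part (17.4%) and 3273 of the long part (15.2%) every UC was above every control, which occurred in 15.4% of all tiles. Every UC was below every control in 297 (9.18%) and 2057 (9.56%), against 10.0% of all tiles.

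The tiles with the largest rises in the long part started from almost no methylation, and the UCs reached 35% to 94.3%. The largest in the long part, chr1:131463601-131463800, was at 5.77%, 5.92% and 1.92% in the controls and at 93.3%, 93.8%, 55.4%, 82.8% and 94.3% in the UCs, a rise of 79.4 points (quasi-binomial F-test with limma moderation, adjusted p = 0.0020). Its neighbour at 131464001 to 131464200 rose by 68.9 points (adjusted p = 0.0061). They lay 8645 and 8925 bp from the listed region of Nr2f2, an orphan nuclear receptor of mesoderm and vessel development, so they are not separate places. The other, chr1:32640601-32640800, went from 2.33% to 4.72% in the controls to 93.0%, 80%, 35%, 81.1% and 76.8% and lay 2922 bp from the promoter of Irx4, an Iroquois homeobox factor of the heart ventricle. BT-3 was the lowest UC in all 3 tiles.

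Falls were as large. The tile at chr1:87296801-87297000 went from 75% to 92.0% in the controls to 0% to 9.76% in the UCs (a difference of -80.1 points; adjusted p = 0.0011). At chr1:84001201-84001400, which lay 6613 bp from the promoter of Actmap, an actin maturation protease, the controls had 91.2% to 94.0% and the UCs 11.9%, 5.26%, 25.8%, 16.2% and 8.78% (adjusted p = 0.00074). At chr1:222267401-222267600 the controls had 74.0% to 81.6%, BT-1 had 6.33% and the other 4 UCs had 0% (adjusted p = 0.00083). Groups without overlap were a condition for naming these tiles, so their agreement across UCs is by choice.

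In the end part the largest rises were at chr1:260829801-260830000, chr1:274271601-274271800 and chr1:277457201-277457400. The first, before the breakpoint, went from 20.1%, 22.1% and 13.8% in the controls to 95.3%, 89.5%, 65.2%, 82.0% and 97.7% (67.3 points; adjusted p = 0.0022). The others rose by 64.8 and 63.1 points (adjusted p = 0.0013 and 0.0025) and lay 26.4 and 79.8 kb from the nearest placed promoters, of Dusp5, a phosphatase that acts on ERK, and Adrb1, the β1-adrenergic receptor. All 3 largest falls were after the breakpoint. At chr1:266750401-266750600 the controls had 75%, 72.2% and 80.2% and the UCs 6.79%, 1.92%, 15.8%, 2.34% and 3.05% (-69.8 points; adjusted p = 0.0011). Those at chr1:278213201-278213400 and chr1:267557601-267557800 were -68.5 and -68.4 points. Of these 6 tiles of the end part, 5 lay in the stretch with raised coverage in BT-1 and BT-2, with changes in both directions. That stretch held 2432 of the 3234 tiles of the end part, with 248 of its 313 tiles called higher and 182 of its 233 called lower.

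Counted against all 3 controls, the share of changed tiles varied more between UCs than between the parts. In the long part 15.8% of the tiles of BT-1 and 15.2% of those of BT-2 were over 10 points above every control, against 6.82% in BT-3 and 11.9% in both BT-4 and BT-5. In the end part the shares were 17.3%, 17.3%, 8.13%, 13.4% and 13.5%, and on chromosomes 2 to 20 they were 16.3%, 15.8%, 7.05%, 12.3% and 12.1%. BT-1 and BT-2 were the highest in every stretch and BT-3 the lowest. Tiles over 10 points below every control made up 9.86%, 10.4%, 8.08%, 12.8% and 13.4% of the long part in BT-1 to BT-5, and 10.9%, 11.5%, 8.70%, 14.2% and 14.6% on chromosomes 2 to 20. BT-4 and BT-5 had the most in both.

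BT-1 and BT-2 also resembled each other closely. The root mean square difference of tile levels between them was 6.26 points in the long part and 5.39 in the end part, against 6.77 to 6.89 and 6.97 to 7.15 between controls. BT-4 and BT-5 were likewise 5.97 and 6.05 points apart. On chromosomes 2 to 20, BT-1 and BT-2 were 5.97 points apart, BT-4 and BT-5 6.17 and the controls 7.08 to 7.25. The remaining pairs of UCs had values of 12.6 to 13.5 points in the long part and 12.4 to 14.2 in the end part. Tiles in the end part held more calls in BT-1 and BT-2, a fact that goes with the smaller distance there and whose part in it was not tested.

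When a cell loses 1 parental copy of a segment, sites methylated on 1 copy only lose their intermediate level. Tiles between 30% and 70% in each control were therefore followed, 2415 in the long part, 397 in the end part and 27252 on chromosomes 2 to 20. The choice keeps the controls in that range, so the size of the shifts is a description. An intermediate level in bulk tissue does not show methylation on 1 copy only, and loss of a parental copy was not tested. The mean absolute distance from the control mean in the long part was 5.64, 5.83 and 5.63 points in C1 to C3, each against the other controls, and 25.6, 25.8, 15.3, 23.7 and 24.3 points in BT-1 to BT-5. In the end part it was 5.39 to 6.22 points in the controls and 27.8, 27.5, 16.3, 25.3 and 25.9 in the UCs. On chromosomes 2 to 20 the UCs were at 25.3, 25.4, 15.0, 23.7 and 24.2 points. The long part minus chromosomes 2 to 20 was thus 0.26, 0.34, 0.30, 0.02 and 0.12 points in BT-1 to BT-5, and the end part minus chromosomes 2 to 20 was 2.46, 2.02, 1.29, 1.58 and 1.76 points, against -0.33 to 0.40 in the controls. After the breakpoint alone, the differences from chromosomes 2 to 20 were 3.47, 3.06, 1.38, 2.34 and 2.65 points, against -0.15 to 0.45 in the controls, and BT-1 and BT-2 were the highest. Within the long part, where BT-1 and BT-2 had lower coverage, the shifts varied between the stretches used above for coverage. In the stretches from 20 to 220 Mb they were 24.7 to 25.7 points in BT-1 and 24.3 to 26.1 in BT-2. BT-3, BT-4 and BT-5 had 14.7 to 15.5, 22.1 to 25.3 and 22.6 to 25.6 points there. Only between 220 and 260 Mb, the stretch with the largest shifts in every UC, did BT-1 and BT-2 come near their values after the breakpoint. The shifts between 220 and 260 Mb were 28.1, 28.4, 16.2, 25.8 and 26.6 points in BT-1 to BT-5. After the breakpoint they were 28.8, 28.5, 16.4, 26.1 and 26.8 points. The part of coverage in these values was not tested.

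More of these tiles were over 20 points higher than over 20 points lower in every UC, most unevenly in BT-1 and BT-2, as on the other autosomes. In the long part 977 tiles were higher and 496 lower in BT-1, and 936 and 514 in BT-2. The counts were 364 and 361 in BT-3, 756 and 567 in BT-4 and 756 and 598 in BT-5. In the end part 163 were higher and 98 lower in BT-1, 160 and 94 in BT-2, 73 and 65 in BT-3, 142 and 101 in BT-4 and 133 and 104 in BT-5. As shares, BT-1 had 40.5% higher and 20.5% lower in the long part and 39.1% and 20.5% on chromosomes 2 to 20, and BT-2 had 38.8% and 21.3% against 38.1% and 21.5%.

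**Figure D4:**
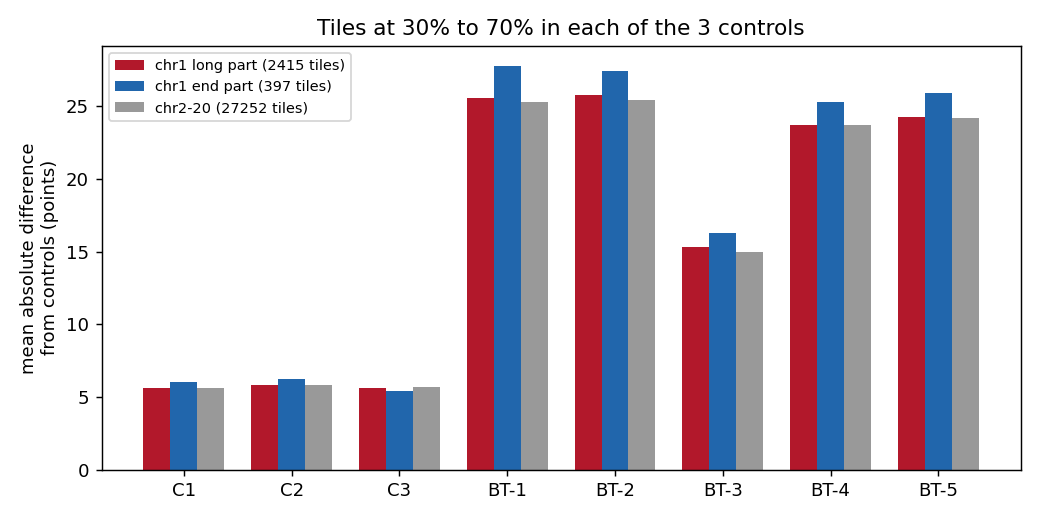
Mean absolute difference from the controls, in points, of tiles that had 30% to 70% methylation in each of the 3 controls, for each sample in the long part (2415 tiles), the end part (397) and chromosomes 2 to 20 (27252). The 3 bars of a sample are of similar height: BT-1 and BT-2 are at 25.3 to 27.8 points, BT-3 at 15.0 to 16.3 and the controls at 5.39 to 6.22.

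Among the listed regions of the long part were those of 2 imprinted genes, whose surroundings were read tile by tile. Igf2 encodes a growth factor made from the paternal copy and lies beside a control region methylated on that copy, and Peg12 is a paternally expressed gene of the region linked to Prader-Willi syndrome. Within 200 kb of the Igf2 region, 10 of 62 tiles had 30% to 70% in each control, of which 4 passed the test as higher and 1 as lower. Such calls were common among intermediate tiles, of which 27.4% were called higher and 16.8% lower over all chromosomes. The tile at -111.8 kb was at 64.1%, 66.2% and 62.1% in the controls and at 96.3%, 96.4%, 76.6%, 96.0% and 96.4% in the UCs (adjusted p = 0.014). The tile at -118.7 kb went from 41.1% to 47.1% in the controls to 92.4%, 81.7%, 64.0%, 71.1% and 66.1% (adjusted p = 0.013). In both, all UCs were above all controls. The tile at -7.3 kb was at 82.5% and 84.3% in BT-1 and BT-2, at 64.5%, 49.7% and 54.5% in BT-3 to BT-5 and at 63.7% to 67.3% in the controls (adjusted p = 0.982).

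Not all tiles near Igf2 moved up. The tile at -140.8 kb fell from 34.5%, 43.3% and 37.6% to 28.6%, 25.4%, 20.4%, 16.3% and 16.8% (adjusted p = 0.019). At 15.2 kb on the other side, BT-1 and BT-2 were at 16.7% and 14.3% while BT-3 to BT-5 were at 36.7%, 38.0% and 46.0% and the controls at 40.4% to 50% (adjusted p = 0.218, on 28 to 110 calls per sample). Near Peg12, 4 of 31 tiles were in the range and 1 was called, at -68.2 kb, with a rise of 21.7 points (adjusted p = 0.033). The tile at -171.2 kb again set BT-1 and BT-2 apart, at 30.2% and 22.1%, from BT-3 to BT-5 at 63.4%, 42.0% and 51.5% and from the controls at 64.4% to 70% (adjusted p = 0.173). The tiles at -7.3, 15.2 and -171.2 kb were singled out after their values were seen.

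The study's list of hypermethylated promoters had 33 regions in the long part and 4 in the end part. They were chosen on these samples, so a higher level in UCs is no independent evidence, and only its size and its order among UCs are described. With at least 3 CpGs in every sample, 22 regions of the long part could be read, and in 21 of them every UC was above every control. The median difference was 16.9 points, with a range of 11.7 to 41.9. All 4 regions of the end part were read and free of overlap, with a median difference of 21.1 points. BT-1 and BT-2 averaged higher than BT-3 to BT-5 in 14 of the 22 regions of the long part and in 3 of the 4 of the end part.

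The end part's regions lay on both sides of the breakpoint. Sfrp5, a secreted antagonist of Wnt signalling, had 0.97%, 1.95% and 3.57% in the controls and 40.9%, 35.4%, 6.13%, 24.6% and 33.2% in BT-1 to BT-5. Nkx2-3, a homeobox factor of spleen and gut development, had 4.29%, 2.05% and 6.82% and then 50%, 40.5%, 41.7%, 20% and 15%. Both sit before the breakpoint, and BT-1 was the highest UC in each.

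After the breakpoint, Pax2 had 2.20%, 2.03% and 1.88% in the controls and 13.8%, 16.9%, 5.26%, 12.7% and 13.5% in the UCs. Tlx1, a homeobox factor of spleen development, had 2.12%, 1.55% and 1.88% and then 9.93%, 12.1%, 16.0%, 19.5% and 32.9%. In the listed region of Tlx1 the order of the UCs was turned: BT-1 and BT-2, whose coverage was raised there, were the lowest. The placed promoter of Tlx1 showed another order. BT-1 and BT-2 were the 2 highest there, at 10.1% and 11.5%, with BT-3 to BT-5 at 6.11%, 9.86% and 5.29%. In the listed region of Pax2, BT-1 and BT-2 were the 2 highest, by a narrow margin over BT-5.

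In the long part the largest differences were those of Shisa7, Prkcb and Gpr26. Shisa7, an auxiliary protein of neurotransmitter receptors, had 7.18%, 11.9% and 6.88% in the controls and 39.4%, 41.1%, 49.7%, 63.3% and 59.1% in the UCs, 41.9 points more on average. Prkcb, the β isoform of protein kinase C, had 2.19%, 0.79% and 1.83% and then 41.6%, 47.8%, 8.13%, 45.2% and 45.9%. Gpr26, an orphan G protein-coupled receptor, differed by 29.9 points and was highest in BT-3, at 51.5%. The 3 smallest were Nox4, an NADPH oxidase (11.7 points), Crym, a thyroid hormone-binding protein (11.8), and Tbc1d10b, a Rab GTPase activator (12.1). Tbc1d10b was the region with overlap, since BT-3 at 1.46% was under C2 at 2.90%.

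Where BT-1 and BT-2 parted most from BT-3 to BT-5, they did so in both directions. Their mean was 19.4 points higher at Dmrt2, a factor of muscle and somite development, and 15.5 points higher at Fam181b, but 17.1 points lower at Shisa7. Coro1a, which binds actin in leukocytes, had 2.62%, 2.60% and 2.68% in the controls and 17.7%, 10.7%, 10.8%, 24.3% and 26.2% in the UCs. Pde8a, a cAMP phosphodiesterase, had 0.49% to 2.04% and then 25.1%, 28.1%, 7.74%, 41.7% and 33.8%. Polg, the mitochondrial DNA polymerase, started from 34.9%, 27.9% and 19.1% and was at 47.8%, 44.4%, 35.05%, 40.9% and 37.7%, so that BT-3 barely cleared C1. Sprn had too few CpGs in some samples to be read.

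The listed region of Igf2 had 18.6%, 22.0% and 17.1% in the controls and 44.0%, 51.5%, 47.6%, 42.9% and 35.8% in the UCs. That of Peg12 had 4.71%, 3.07% and 1.98% and then 12.6%, 15.8%, 7.14%, 19.8% and 22.2%. In both regions every UC was above every control. The mean of BT-1 and BT-2 was above that of BT-3 to BT-5 at Igf2 and below it at Peg12.

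**Figure D5:**
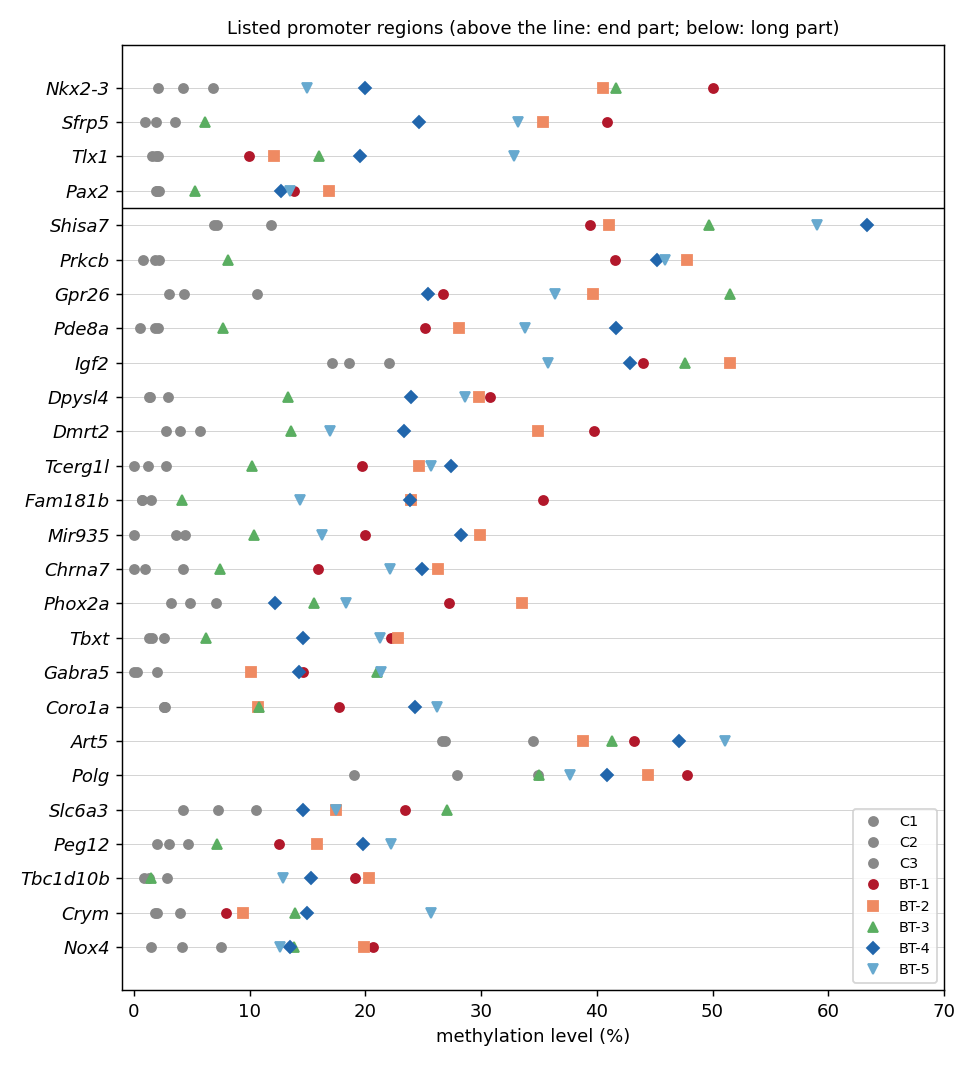
Methylation level in percent of each sample in the 26 listed regions that every sample covered, 1 row per gene, with the 4 of the end part above the line and the 22 of the long part below it, ordered by the difference of group means. Grey controls lie to the left of the UCs in every row but that of Tbc1d10b, and BT-3 is often the lowest UC.

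Beyond the list, 757 promoters of the long part and 91 of the end part were placed with at least 3 CpGs in every sample. Most were unmethylated throughout. Of 730 with a control mean under 10% in the long part, 686 were under 10% in all 8 samples and 20 had UC means over 10 points higher, and in the end part 80 of 88 were under 10% and 2 were that much higher, Sfrp5 and Nkx2-3. Counting all starting levels, 25 promoters of the long part differed by over 10 points upwards and 6 downwards, and in the end part 2 and 0.

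Some of these promoters, named here after their values were seen, differed between UCs. The promoter of Tacc2, a centrosomal coiled-coil protein, was at 3.95%, 4.39% and 5.49% in the controls and at 58.8%, 60.9%, 23.5%, 28.96% and 19.3% in the UCs. That of Isoc2b was at 0.74% to 2.11% in the controls, 46.3% in BT-1 and 31.5% in BT-2, and at most 1.43% in BT-3 to BT-5. In the other direction, Htatip2, a gene studied as a metastasis suppressor, was at 37.3%, 35.2% and 27.95% in the controls and at 1.19%, 2.81%, 13.4%, 4.49% and 4.39% in the UCs. The promoter of Igf2r, the receptor that clears IGF2, was at 29.1% to 34.0% in the controls and 36.7% to 43.1% in the UCs.

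Close to the breakpoint nearly all promoters were unmethylated on both sides. From 260 Mb to the breakpoint 28 promoters were placed, of which 23 were under 10% in every sample, the others being those of Hoga1, Sfrp5, Golga7b, Nkx2-3 and Sec31b. Over about 2 Mb after it 25 were placed and 23 were under 10% in every sample, the others being Pax2 and Tlx1. Hif1an was at most 0.53% in any sample. Pax2 was at 2.67%, 1.88% and 1.85% in the controls and 14.9%, 16.0%, 6.36%, 8.69% and 9.94% in BT-1 to BT-5, and Sec31b, close before Hif1an, at 2.16% to 6.41% and then 13.1%, 13.5%, 7.73%, 10.7% and 12.6%.

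Coverage and methylation were last set side by side in the 128 windows of 2 Mb of both parts that held at least 20 tiles. As a description across windows that share libraries, base composition and depth, Pearson's r between the log2 coverage of a window and its methylation change was 0.03 in BT-1 and -0.11 in BT-2, and -0.26, -0.24 and -0.27 in BT-3 to BT-5. The window's level was above the control mean in 106 windows in BT-1, 104 in BT-2, 68 in BT-3, 62 in BT-4 and 50 in BT-5.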

How the data were processed

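RRBS calls of 5 UCs and 3 control bladders were analysed. Reads had been trimmed and mapped to rn6 by the authors' service provider with RRBSMAP; reads with several matches were discarded, as were PCR duplicates, found through a barcode and the read position. HOMER and rn6 are named in the submitters' processing notes. The deposited files give for each CpG of at least 3 reads, strands combined, 2 counts (C calls, and C plus T calls), an expected count of C plus T calls that the authors' caller corrected with the opposite strand (an alternative here), and a ratio as a fraction, which the authors deposited and which was not used further.

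Calls were summed over tiles, and levels are C calls over all calls. Coverage used calls on chromosomes 1 to 20, breakpoints were least-squares steps, and RefSeq promoters (GRCr8) were placed where at least 8 of their CpGs had the spacing of CpGs in the files. Of 4292 promoters of chromosome 1, 1961 had enough CpGs, 1063 were placed, 10 were removed for lying over 5 Mb from their neighbours' place and 133 for sharing a place, which left 920. The 21 listed genes among them were each within 985 bp of their listed region. The rn6 genome and annotation were not used here.

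Tiles were tested with a quasi-binomial model and limma 3.58.1 (R 4.3.3), which moderated its dispersion, with Benjamini-Hochberg adjustment over all 257611 tiles; the script was tested on simulated data. Single values were compared by exact two-sided permutation tests, with 56 ways to draw 3 controls from 8 samples. Python 3.11.15, numpy 2.4.6, pandas 2.3.3, scipy 1.17.1 and matplotlib 3.10.9 were used. The members and lists were chosen with earlier results of these data known. Named regions are all 4 of the end part and, in the long part, the imprinted genes, the 3 largest and 3 smallest differences, the 3 largest gaps between BT-1 and BT-2 and the other UCs, and the genes that the study also lists with expression (Polg, Pde8a, Prkcb, Coro1a, Sprn). Named tiles are, in each part, the 3 called tiles with the largest rise and the 3 with the largest fall and no overlap of groups. Intermediate tiles and tiles near the imprinted genes were taken at 30% to 70% in each control and within 200 kb. Replicate numbers shared by controls and UCs were checked for pairing, as given with the alternatives. No batch is named in the labels, and no expression was measured in these files, so the tissue labels were not checked against markers.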

Additional observations from a re-analysis of the deposited data

Results flagged for a closer look

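Of 58 values screened for a UC far from the other 4, 11 had a sample whose gap to its nearest neighbour exceeded 0.71 of the group's range, a limit that chance passes in about 1 of 20 groups. BT-3 was that sample in 10 of them, always on the side of the controls. The listed region of Prkcb was at 8.13% in BT-3. The tile at 32640601 of chromosome 1, near Irx4, was at 35% and the tile at 131464001, near Nr2f2, at 40.8%. In the end part BT-3 was at 80% in the tile at 277457201, at 24.4% in the tile at 278213201 and at 10.53% in the tile at 267557601.

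Near Igf2, BT-3 was at 76.6% in the tile at -111.8 kb and at 73.9% in the tile at -31.6 kb. Its mean shift of the tiles with intermediate control levels was 15.3 points in the long part and 16.3 points in the end part. The remaining value was that of BT-1, at 6.33% in the tile at 222267401, where the other 4 UCs were at 0%. Many of these values come from the same sample and are not independent of each other.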

How the results depend on the processing

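Coverage is relative and the fits of position rest on few windows, so sizes moved more than signs. The long part's coverage of BT-1 and BT-2, -0.23 (log2), was -0.24 over chromosomes 2 to 20, -0.18 against BT-4 and BT-5 and -0.049 by number of CpGs, and -0.23 to -0.22 without single controls. The end part's, 0.27, was 0.25, 0.32 and 0.050 under the same settings, 0.39 by the median window, 0.40 when split at the breakpoint and 0.26 to 0.27 without single controls. Windows of 1 or 2 Mb gave a breakpoint of 264 Mb, and leaving out controls gave 264.2 to 264.4 Mb in BT-1 and 264.4 to 264.6 Mb in BT-2. The start edge was unstable: 58.4 Mb in BT-1 and 25 Mb in BT-2 against BT-4 and BT-5, 23.95 Mb in BT-2 with 50-kb windows, and 25.8 to 26.0 and 23.2 to 26.0 Mb without single controls. A step inside the long part fell anywhere from 53 to 117 Mb in these 2 tumours. The baseline of BT-4 and BT-5 and the splits were chosen after seeing the data.

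The level difference of the long part was 3.03 points with at least 10 reads per CpG (p = 0.0179, exact permutation test) and 2.06 to 3.52 without single samples, and that of the end part 2.999 after the breakpoint and 2.20 to 3.70. With at least 10 reads per CpG the end part differed by 2.83 points (p = 0.0536, exact permutation test). Long against end (-0.0035 points) was -0.31 by mean of tiles, -0.40 by mean of tiles with the parts split at the breakpoint, 0.21 with at least 10 reads, and -0.17 to 0.30 without single samples, so its sign on summed calls is not settled. Long against the other autosomes was 0.22 by mean of tiles and 0.22 when also split, each with p = 0.0179 (exact permutation test), and 0.05 to 0.34 without single samples. The causes were not tested.

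Called tiles in the long and the end part, 3387 and 546, were 2239 and 358 without moderation, 1991 and 321 with at least 10 reads, 6122 and 981 with at least 10 calls per tile, and 1771 and 278 with BT-1 and BT-2 and also BT-4 and BT-5 merged. The tiles tested numbered 12494 and 1924 with at least 10 reads and 38953 and 5725 with at least 10 calls. In the long part the shares called higher and lower were 9.69% and 6.24% with at least 10 reads (chromosomes 2 to 20: 10.1% and 6.98%). They were 8.08% and 7.63% with at least 10 calls (8.32% and 8.05%), and 5.86% and 4.54% without moderation (5.91% and 4.88%). In the end part they were 9.98% and 6.70%, 9.47% and 7.67%, and 6.18% and 4.89%. After merging, the long part had 4.46% higher and 3.76% lower, against 4.50% and 3.96% on chromosomes 2 to 20. A block on the replicate number gave 1.59% and 0.999%, against 1.62% and 1.15%. Without single samples the called tiles ran from 1737 to 4407 and from 277 to 764, lowest without a control: 2001 and 312 without C1, 1882 and 308 without C2, 1737 and 277 without C3. With the replicate number as a block they were 558 and 114, and 3 of 12 named tiles missed the threshold (adjusted p = 0.071, 0.063 and 0.054); level differences were 3.46 and 3.58 points over 3 pairs, where p cannot go below 0.25. Same-numbered samples correlated at 0.01, -0.01 and 0.04 across tiles, so the numbers do not pair the samples, and the block leaves only the 3 numbered pairs to the contrast. Over all settings, those above included, 116 values of the main results and 153 of named tiles kept their direction. Where there was a test they also kept their side of the threshold, with positions and coverage within the spread and counts within 1.5 times. Of the other main values, 16 moved beyond the spread and 4 reversed, while 14 were weaker and 12 stronger by threshold or count. For named tiles 3 values were weaker. The shift of intermediate tiles stayed within 22.9 to 23.1 points without single controls. With 14 to 18 calls per CpG, single tiles of a few CpGs carry the largest counting error.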

Other observations

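The first 20 Mb of chromosome 1, which neither part includes, held a window from 10 to 12 Mb whose coverage differed between controls as well as UCs: it spanned -0.93 to 0.88 on the log2 scale in the controls and reached 1.34 in BT-4 and 1.29 in BT-5. Over the whole stretch the summed level was 28.2% to 38.6% in the controls, and the mean of tile levels was 65.0% to 65.3%.

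Among promoters named after their values were seen, a few in the long part stood at high levels in BT-1 and BT-2 only or mainly. Nkx1-2, a homeobox gene, was at 2.42% to 2.92% in the controls, at 29.3% and 26.5% in BT-1 and BT-2 and at 7.14%, 8.18% and 2.44% in BT-3 to BT-5. Gal, which encodes the neuropeptide galanin, was at 1.38% to 3.66% in the controls, 28.1% and 17.4% in BT-1 and BT-2 and 3.97%, 9.73% and 8.35% in the others. Whether these gaps differ from those on other chromosomes was not tested.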
